A study of Sus scrofa with 9 samples.

Results

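The newborn pig heart passes, within its first weeks, from growth partly by division of its muscle cells to growth by enlargement of those cells, while its main fuel turns from glucose and lactate to fatty acids. The change across that window was measured here as the net difference between left ventricles taken at postnatal day 15 and at postnatal day 0. Each age was represented by 3 RNA sequencing libraries (titled replicates 4, 5 and 6 at day 0, and 1, 2 and 6 at day 15). The comparison covered every row of the deposited expression table with a level of at least 1 TPM (a transcript's length-normalised share of its library) in at least 3 of the 9 libraries of the study, which left 12268 of 22629 rows.

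All pigs carried the wild type genotype and were left untreated, and 3 further libraries from postnatal day 7 (replicates 2, 5 and 6) lie between the compared ages. The day 7 libraries entered the estimate of the spread and are quoted only as levels. Whether the 3 libraries of an age stem from different animals is not in the labels, and p-values therefore measure a spread between libraries that may be technical. Values below follow the replicate order given above. The sequencing depth behind a TPM value is unknown, and no counting interval can be given.

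Whole tissue was sequenced, so a transcript can fall because fewer cells of a type were present or because each cell held less of it, and these cannot be told apart. The tissue label was checked against 11 cardiomyocyte markers, among them the slow myosin heavy chain MYH7 and cardiac troponin I TNNI3. Their summed level was 51068 to 60329 TPM at day 0 and 48760 to 59993 TPM at day 15. Of these markers 1 passed the threshold, the creatine kinase CKM (3 rose after the scaling described below). Of 13 skeletal muscle markers in the table, 2 passed the level filter, and the myogenic factors MYF5, MYF6 and PAX7 were listed at 0 in all 6 libraries. The summed level of the 13 was 1615 to 6043 TPM at day 0 and 2451 to 5214 TPM at day 15. Nearly all of it was skeletal actin, ACTA1, whose libraries overlapped between the ages and which did not pass.

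Between day 0 and day 15, 2933 rows (23.9% of those tested) passed an adjusted p of 0.05 in limma, a linear model test with moderated variances. Far more fell than rose: 2255 rows were lower at day 15 (18.4%) and 678 were higher (5.53%). Of these rows 852 (6.94% of those tested) also differed by 2-fold or more, that is by 1 or more on the log2(TPM + 1) scale, of which 539 fell and 313 rose. The lead of the falls depended on scaling. TPM is a share, the median row moved by -0.19 on the log2 scale, and after median-of-ratios scaling, which moved that median to 0.01, 1912 rows rose (15.6%) and 1889 fell (15.4%). No row was called in opposite directions under the TPM and the median-of-ratios values, and 676 rises and 1851 falls were called under both. At 2-fold or more, 501 rose and 259 fell after that scaling, and rises also led after quantile normalization (424 to 283), without the most abundant row (485 to 372), without mitochondrial and the 20 most abundant rows (695 to 325) and without replicate 1 of day 15 (456 to 400). Gene group counts are therefore given below on TPM and, where they differ, after median-of-ratios scaling. Summed levels of marker lists are given on TPM only.

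**Figure D1:**
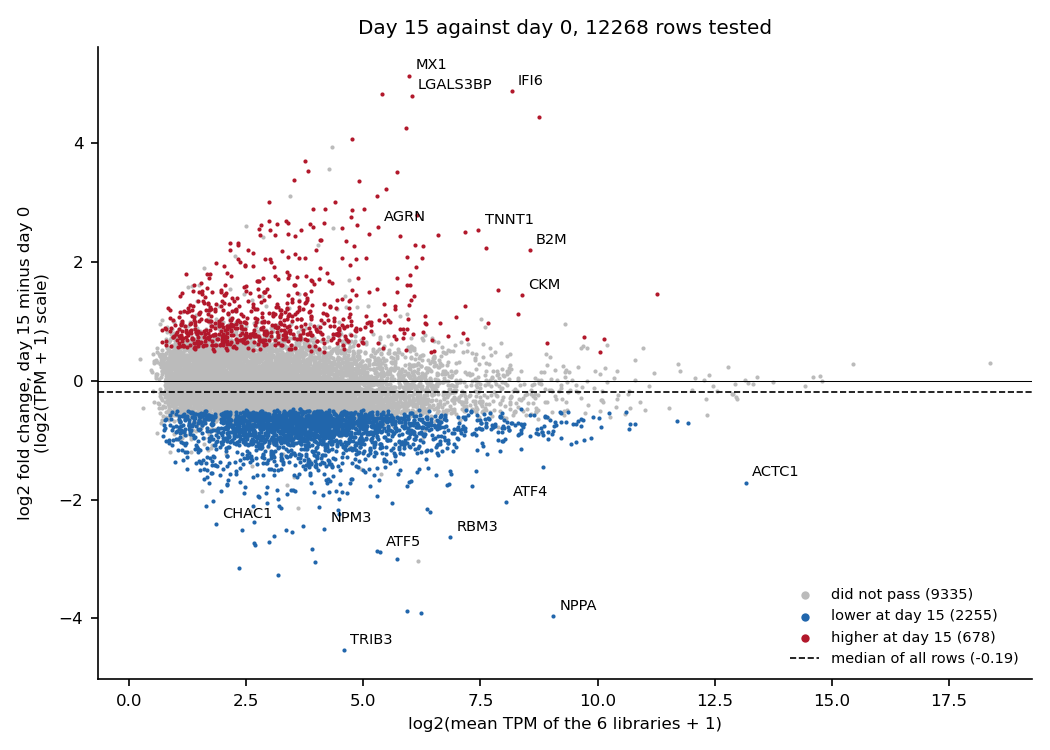
Each point is 1 of the 12268 rows tested, with log2(mean TPM of the 6 libraries + 1) on the horizontal axis and the log2 fold change of day 15 minus day 0 on the vertical axis. Blue points are the 2255 rows that were lower at day 15, red points the 678 that were higher, and the dashed line is the median of all rows at -0.19. Interferon-stimulated genes such as MX1 and IFI6 are at the top, and TRIB3 and NPPA at the bottom.

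Libraries of an age were not equally alike. The most abundant row, which carries only an Ensembl identifier, took between 24.0% (day 0, replicate 6) and 46.0% (day 15, replicate 1) of a library, and its own change did not pass (adjusted p = 0.305 in limma for ENSSSCG00000032277). Without replicate 6 of day 0 the number of rows called was 816, without replicate 6 of day 15 it was 1341, and without replicate 4 of day 0 it was 1826. The falls alone numbered 1330 without replicate 1 of day 15, the rises alone 443 without replicate 2 of day 15, and the rows called with at least 2-fold 460 without replicate 6 of day 0. Of 154 of the called genes named here and in the closing section, 39 lost their call in at least 1 omission of a library. The losses numbered 37 without replicate 6 of day 0 and 20 each without replicate 6 of day 15 and replicate 4 of day 0. They numbered at most 7 without any other library. The groups of 3 did not overlap in 39.93% of all rows tested, 1159 with day 15 higher and 3739 with day 15 lower.

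The group that fell most was the amino acid response. ATF4 is a transcription factor whose protein is made when amino acids run short or the endoplasmic reticulum is under stress, and it switches on genes for amino acid synthesis and uptake, for tRNA charging and, through CHOP (gene DDIT3), for stress-induced death. Of 25 tested genes of the ATF4 and CHOP response, 22 were lower at day 15, and the list's median log2 fold change was -1.48 beside -0.19 for all rows. After median-of-ratios scaling the counts were the same and the median was -1.24. Leaving out single libraries gave between 15 and 22 falls. Among the 22, CHAC1 and SESN2 reached 1 TPM in day 0 libraries only. The level filter thus fixed in advance that their ages would not overlap.

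ATF4 itself read 428, 364 and 488 TPM at day 0 and 96.4, 122 and 90.1 TPM at day 15, with 119.8, 117 and 89.3 TPM at day 7. Its log2 fold change was -2.04 ± 0.19 (SE), with a limma adjusted p of 2.20e-04. Every day 0 library lay above every older library. Its relative ATF5, which is switched on under the same stresses, read 61.5, 60.6 and 90.8 TPM at day 0 and 7.34, 10.4 and 8.27 TPM at day 15 (log2 fold change -2.88). DDIT3 read 80.9, 38.1 and 86.5 TPM at day 0 and 7.53, 10.4 and 6.47 TPM at day 15 (log2 fold change -2.86). Both showed the same separation of ages, with the lowest day 0 library above the highest day 15 library.

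TRIB3, a pseudokinase switched on by ATF4 and CHOP, had the largest fall of any row called. It read 45.6, 32.1 and 57.9 TPM at day 0, then 2.79, 1.92 and 1.37 TPM at day 7 and 0.254, 1.85 and 1.03 TPM at day 15. The fitted log2 change came to -4.54 ± 0.30 (SE), with a limma adjusted p of 2.05e-05, and the day 7 libraries already lay near the day 15 level. CHAC1, which breaks down glutathione and is a direct target of the pathway, read 3.99, 5.89 and 5.39 TPM at day 0 and 0.1200, 0.135 and 0.142 TPM at day 15 (log2 fold change -2.41). The secreted factor FGF21, a stress hormone of low level here, read 3.67, 3.92 and 6.26 TPM at day 0 and 0.285, 0.445 and 0.312 TPM at day 15 (log2 fold change -2.03). Neither gene reached 1 TPM in any day 15 library, and CHAC1 reached it in day 0 libraries only. CHAC1 thus passed the level filter only through the age where it was high. The groups did not overlap for either gene, but for CHAC1 the filter fixed this in advance. The falls of TRIB3, CHAC1, ATF4, ATF5, DDIT3 and FGF21 passed the threshold under every alternative setting in which they were tested, including each omission of a library. Of 22 alternatives, the filter on a mean of at least 5 TPM and the removal of the most abundant rows leave out some genes, and "every alternative" refers here and below to those in which a gene was tested.

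Genes that act downstream of ATF4 on amino acids fell as well. Asparagine synthetase, ASNS, read 19.6, 27.9 and 21.8 TPM at day 0 and 3.85, 7.82 and 5.54 TPM at day 15 (log2 fold change -1.87 ± 0.26 (SE), limma adjusted p = 0.00141). PYCR1, which makes proline in mitochondria, had a log2 fold change of -2.13, and PHGDH, the first enzyme of serine synthesis, of -1.08. In the list of serine, one-carbon and asparagine synthesis, 9 of 17 genes fell and 1 rose (ALDH1L2, at 0.67). After scaling 8 fell and 3 rose. The falls on TPM numbered 4 without replicate 6 of day 0. Lists overlap, and ASNS counts in this one and in the ATF4 list.

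Among amino acid transporters, 7 of 16 genes fell (7 fell and 1 rose after scaling) and single omitted libraries left between 5 and 8 falls. SLC7A5 and SLC3A2 are the light and heavy chain of a carrier for leucine and other large neutral amino acids. SLC7A5 read 9.56, 10.3 and 18.7 TPM at day 0 and 1.46, 1.08 and 0.643 TPM at day 15 (log2 fold change -2.71) and SLC3A2 read 70.9, 63.6 and 97.9 TPM at day 0 and 14.98, 23.6 and 15.2 TPM at day 15 (log2 fold change -2.06). The neutral amino acid carrier SLC1A4 had a log2 fold change of -2.82 and the cationic amino acid carrier SLC7A1 of -1.84. These 4 carriers passed under every alternative run.

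Aminoacyl-tRNA synthetases load each amino acid onto its tRNA for protein synthesis, and many cytoplasmic members are ATF4 targets. Of 19 tested, 15 fell, with a median log2 fold change of -1.13. After median-of-ratios scaling 14 fell and 1 rose. The tyrosine enzyme YARS read 21.9, 17.9 and 25.5 TPM at day 0 and 4.88, 6.996 and 5.83 TPM at day 15 (log2 fold change -1.72 ± 0.19 (SE), limma adjusted p = 4.50e-04). The threonine enzyme TARS, the alanine enzyme AARS1 and the isoleucine enzyme IARS had log2 fold changes of -1.55, -1.48 and -1.31. All 3 were called under every alternative run.

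Ribosome assembly genes fell almost as a block. Ribosomes are built in the nucleolus, where ribosomal RNA is transcribed, modified and joined to ribosomal proteins, and the supply of assembly factors follows the growth rate of a cell. Of 38 assembly genes tested, 34 fell and none was higher in limma, adjusted or at an unadjusted p under 0.05, with a median log2 fold change of -1.09. After median-of-ratios scaling 35 fell, and single omitted libraries left between 26 and 36 falls.

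NPM3, a nucleolar chaperone of the nucleophosmin family, read 29.5, 27.2 and 31.6 TPM at day 0, then 9.33, 6.27 and 5.52 TPM at day 7 and 4.62, 6.54 and 2.73 TPM at day 15. On the log2 scale it changed by -2.49 ± 0.25 (SE) with a limma adjusted p of 3.94e-04. The nucleolar GTPase GNL3 read 32.3, 26.1 and 39.3 TPM at day 0 and 7.61, 9.91 and 7.22 TPM at day 15 (log2 fold change -1.85), and fibrillarin, FBL, the methyltransferase of ribosomal RNA, read 71.2, 72.8 and 92.7 TPM at day 0 and 24.4, 30.3 and 22.9 TPM at day 15 (log2 fold change -1.57). For all 3 genes the day 0 libraries lay above the day 15 libraries without overlap. NOP2, another ribosomal RNA methyltransferase, fell by 1.68 on the log2 scale, and nucleolin, NCL, the most abundant member, by 0.83. MYC, the transcription factor best known for driving ribosome production, read 26.6, 19.4 and 35.1 TPM at day 0 and 4.63, 8.52 and 5.95 TPM at day 15 (log2 fold change -1.92) and was called under every alternative run.

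Translation factors were less uniform: 7 of 21 fell, among them the initiation factors EIF4A1 (-1.07 on the log2 scale) and EIF2S2 (-1.06), and 3 fell without replicate 6 of day 0. On TPM 1 rose, against 4 rises and 7 falls after scaling. It was the elongation factor EEF1A2, which is the form of muscle and neurons. EEF1A2 read 745, 929 and 886 TPM at day 0 and 1376, 1410 and 1370 TPM at day 15 (log2 fold change 0.70 ± 0.16 (SE), limma adjusted p = 0.0101), and was not called without replicate 4 of day 0. The highest day 0 library lay below the lowest day 15 library. Of 44 mitochondrial ribosome genes 11 fell (9 fell and 2 rose after scaling). The falls numbered 2 without replicate 6 of day 0 and 4 without replicate 6 of day 15.

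**Figure D2:**
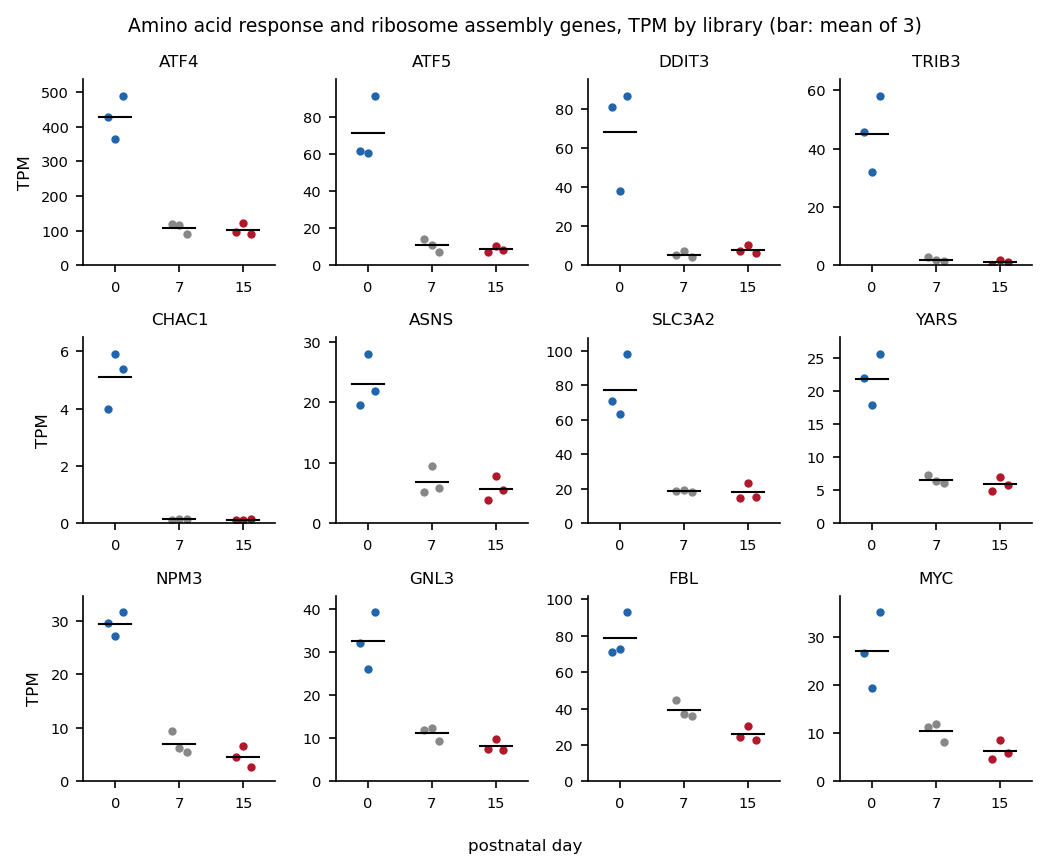
TPM (vertical axis, linear from 0) against postnatal day (horizontal axis) for 12 genes of the amino acid response and of ribosome assembly, with 1 point per library and a bar at the mean of the 3 libraries. In all 12 panels the 3 day 0 points (blue) are above the 3 day 15 points (red), and for TRIB3 the day 7 points (grey) are already at 1.37 to 2.79 TPM.

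Protein folding and protein breakdown genes fell in part, and these counts rested on few libraries. In the unfolded protein response, through which the endoplasmic reticulum raises its folding capacity, 11 of 27 genes fell. They included SDF2L1 (-1.90 on the log2 scale), HERPUD1 (-1.45) and the transcription factor XBP1 (-0.88), and 1 gene rose, CRELD1 (0.97). Of 27 heat shock proteins and chaperones 12 fell, led by the immunophilin FKBP4 (-1.17) and with the constitutive chaperone HSPA8 at -1.03. Of 34 proteasome genes 13 fell, led by the deubiquitinating subunit PSMD14 (-1.13). After scaling the falls in the 3 lists numbered 10, 10 and 11, and each list held 1 rise.

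Without replicate 6 of day 0 these 3 counts were 2, 3 and 2. Without replicate 1 of day 15 they were 5, 5 and 8. With replicate 6 of day 15 left out they were 4, 6 and 3. Without replicate 4 of day 0 they were 7, 5 and 7. The unfolded protein response count was also 7 without replicate 5 of day 0 and 17 without replicate 2 of day 15. SDF2L1, HERPUD1, FKBP4 and PSMD14 were called in every one of these omissions.

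In the opposite direction, genes of the interferon response rose more than any other list examined. Interferons are secreted by cells that sense viral or displaced nucleic acid, and they act through receptors and transcription factors such as IRF9 on a large set of antiviral genes. Of 38 interferon-stimulated genes tested, 32 were higher at day 15 and none was lower in limma, adjusted or at an unadjusted p under 0.05, with a median log2 fold change of 2.60. The count was 34 after median-of-ratios scaling, 16 without replicate 6 of day 0 and 15 with robust variance estimates.

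MX1, a GTPase that traps viral nucleocapsids, read 1.64, 1.01 and 3.15 TPM at day 0, then 5.19, 104 and 9.19 TPM at day 7 and 33.5, 199 and 134 TPM at day 15. The change on the log2 scale was 5.12 ± 0.87 (SE), with a limma adjusted p of 0.00338. IFI6, a mitochondrial and endoplasmic reticulum protein induced by type I interferon, read 7.71, 25.4 and 10.3 TPM at day 0 and 146, 1148 and 383 TPM at day 15 (log2 fold change 4.87). The ubiquitin-like modifier ISG15 read 1.73, 4.602 and 3.95 TPM at day 0 and 20.03, 204 and 119 TPM at day 15 (log2 fold change 4.25). In these 3 genes replicate 1 was the lowest of the day 15 libraries and replicate 2 the highest, yet all 3 day 15 libraries lay above the day 0 libraries. At day 7, replicate 5 stood above the other 2 libraries for MX1.

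Sensors and signal carriers of the pathway were among the genes that rose. OAS2, which makes the second messenger that starts RNA decay, read 4.26, 12.7 and 5.63 TPM at day 0 and 38.3, 119 and 80.9 TPM at day 15 (log2 fold change 3.22). DHX58 and IFIH1, both helicases that sense foreign RNA, had log2 fold changes of 3.53 and 2.53. The transcription factors IRF7 and IRF9 had log2 fold changes of 3.70 and 2.06.

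Several of the largest single rises in the whole comparison were antiviral or secreted genes of this kind. LGALS3BP, a secreted galectin-binding protein, read 1.46, 5.31 and 2.41 TPM at day 0 and 39.2, 206 and 134 TPM at day 15 (log2 fold change 4.79). The row named ISG12(A) read 17.3, 39.4 and 17.8 TPM at day 0 and 170.3, 1904 and 427 TPM at day 15 (log2 fold change 4.43). RSAD2, the antiviral enzyme viperin, had a log2 fold change of 4.81, and PLAC8 of 4.07. RSAD2 lost its call under 1 alternative and the other 3 genes under none of those run.

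Most antigen presentation genes also rose. Of 15 genes tested 12 were higher, with a median log2 fold change of 1.67, and the count was 13 after scaling and 5 without replicate 6 of day 0. Beta-2 microglobulin, B2M, the shared light chain of class I molecules, read 98.6, 127 and 117 TPM at day 0 and 261, 1194 and 452 TPM at day 15 (log2 fold change 2.19 ± 0.45 (SE), limma adjusted p = 0.00723). TAP1, which pumps peptides to class I molecules, read 3.35, 5.96 and 4.62 TPM at day 0 and 12.7, 74.3 and 33.4 TPM at day 15 (log2 fold change 2.57). The immunoproteasome subunit PSMB8 had a log2 fold change of 1.95 and NLRC5, the activator of class I genes, of 1.93. On the class II side, the invariant chain CD74 read 90.4, 149 and 115 TPM at day 0 and 236, 525 and 298 TPM at day 15 (log2 fold change 1.52) and the activator CIITA had a log2 fold change of 1.08. For B2M and CD74 every day 15 library was above every day 0 library.

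Among the 6 libraries compared, immune cell markers moved with these genes in 1 above all. The summed level of 15 macrophage markers was 85.02 to 103 TPM at day 0 and, in the order of the day 15 libraries, 79.5, 336 and 131 TPM. Of these, 13 were tested and 2 rose, the receptor CSF1R (log2 fold change 0.80) and the complement chain C1QC (1.35), against 4 rises after scaling. None of the 13 rose without replicate 4 of day 0, replicate 6 of day 0, replicate 2 of day 15 or replicate 6 of day 15, with 2 falls in the omission of replicate 2, and 5 rose without replicate 1 of day 15 and 4 without replicate 5 of day 7. The summed level of 23 lymphocyte markers was 16.3 to 18.4 TPM at day 0 and 19.4, 117 and 23.3 TPM at day 15. Of the 6 tested, the chemokine CCL5 (2.55) and the cytotoxic granule protein GNLY (2.45) rose, and neither was called without replicate 6 of day 0. The other 17 were below the level filter, and the highest of them at day 15 was the granzyme GZMB, at 0.245, 8.004 and 0.730 TPM with a day 0 maximum of 0.359 TPM. The T cell chain CD3E reached 0.121 TPM at day 0 and 0.759 TPM at day 15. No marker of either list was listed at 0 in all 6 libraries. At day 7 the macrophage sum was 89.7, 157 and 89.5 TPM and the lymphocyte sum 19.5, 43.6 and 32.0 TPM. Both were highest in replicate 5, the library that was also highest for MX1 at that age.

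Without replicate 2 of day 15, 26 interferon-stimulated and 11 antigen presentation genes rose. In replicate 1 of day 15 the macrophage sum on TPM was below the day 0 range and the lymphocyte sum above it. Median-of-ratios scaling divides that library by 0.758, the smallest factor of any library. Scaling would therefore raise its sums against those of day 0, and the place of its macrophage sum depends on scaling. MX1, IFI6, ISG15 and B2M were each higher there than in any day 0 library. The part of immune cells in these rises was not tested.

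**Figure D3:**
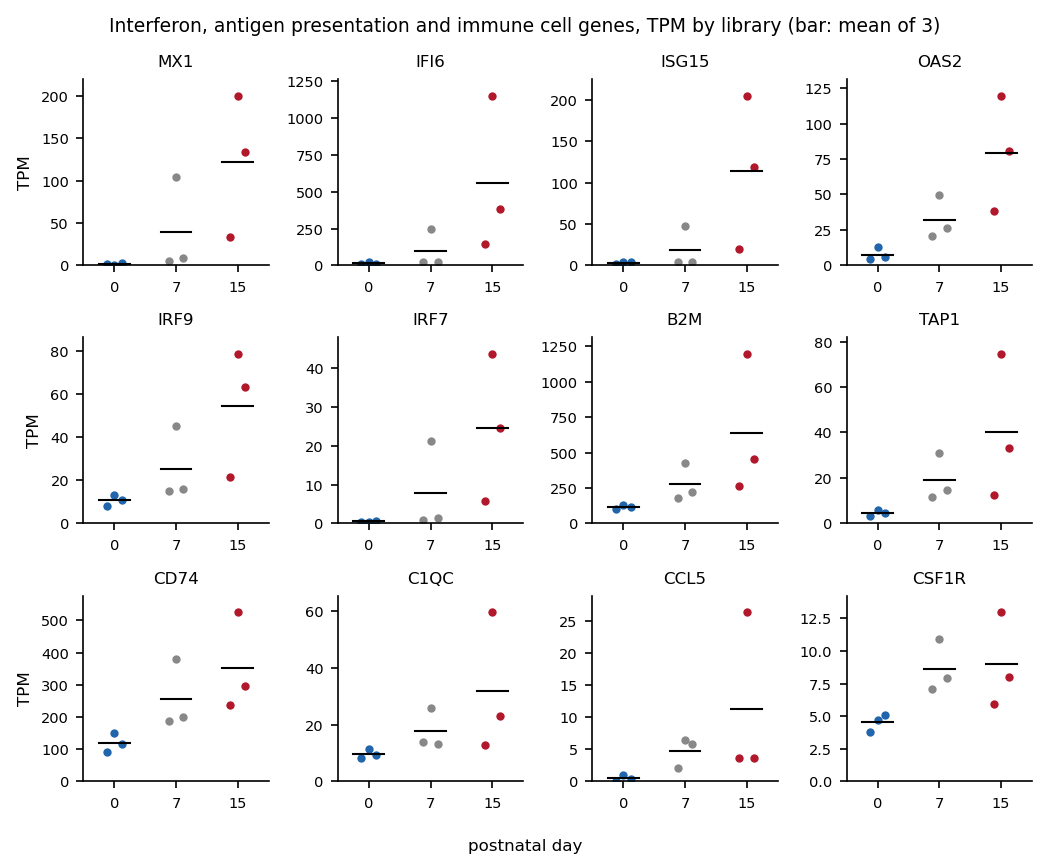
TPM (vertical axis, linear from 0) against postnatal day (horizontal axis) for 12 interferon, antigen presentation and immune cell genes, with 1 point per library and a bar at the mean of the 3 libraries. The 3 day 15 points (red) spread widely, from 33.5 to 199 TPM for MX1, and are above the 3 day 0 points (blue) in each panel.

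Among complement and innate immunity genes the direction was mixed. Of 25 genes tested 4 rose and 4 fell (7 and 3 after scaling). The share of falls was near that of all rows, and the share of rises was above the 5.53% of all rows. The rises were CCL5 and C1QC, both given above among the immune cell markers, and TLR3 and C2. The rises ranged from 0 without replicate 6 of day 0 to 8 without replicate 1 of day 15, with 2 without replicate 4 of day 0 or 2 of day 15 and 1 without replicate 6 of day 15. Complement factor D, CFD, a protease also known as adipsin, read 39.2, 23.4 and 54.9 TPM at day 0 and 10.9, 7.14 and 10.2 TPM at day 15 (log2 fold change -1.89). Its highest library, replicate 6 of day 0, was also the highest for the adipocyte genes ADIPOQ and PLIN1. The part of fat cells in the fall of CFD was not tested. TNFAIP3, a brake on NF-kappaB signalling, had a log2 fold change of -1.18, and the neutrophil protein S100A8 of -1.51. S100A8 reached 1 TPM in day 0 libraries only and so passed the level filter only through that age.

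Fuel handling changed at single steps more than as whole pathways. Heart muscle takes up fatty acids through carriers, binds them to FABP3, moves them into mitochondria through CPT1 and oxidises them there. In the list of fatty acid uptake and oxidation 7 of 34 genes fell and 4 rose (5 and 8 after scaling). The share of falls on TPM was near the 18.4% of all rows. FABP3, FABP5, SLC27A1 and SLC27A4, genes of uptake and binding, were 4 of the falls. FABP3 and SLC27A4 were called under every alternative, whereas FABP5 and SLC27A1 lost the call without replicate 4 or 6 of day 0 or replicate 6 of day 15, among other settings. FABP3 read 826, 417 and 795 TPM at day 0, then 304, 205 and 158 TPM at day 7 and 279, 229 and 211 TPM at day 15. The log2 fold change was -1.45 ± 0.29 (SE), with a limma adjusted p of 0.00624. SLC27A4, a fatty acid carrier and acyl-CoA synthetase, had a log2 fold change of -1.72.

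The transfer step into mitochondria has 2 forms. CPT1A, the form of liver and fetal heart, read 50.5, 36.03 and 57.2 TPM at day 0 and 14.9, 17.1 and 14.5 TPM at day 15 (log2 fold change -1.54, called under every alternative run). CPT1B, the form of muscle, read 325, 239 and 388 TPM at day 0 and 255, 379 and 312 TPM at day 15, with a log2 fold change of 0.00 ± 0.22 (SE) that did not pass (limma adjusted p = 0.997), and 0.25 after median-of-ratios scaling. The CPT1B groups overlapped and its mean was above that of CPT1A at both ages on the TPM scale. The difference between the changes of the 2 genes was not tested.

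The rises were of 3 acyl-CoA dehydrogenases, the first enzymes of the oxidation spiral, and of DECR1, which prepares unsaturated chains for it. ACADL had a log2 fold change of 0.96, ACADS of 0.71 and ACADM of 0.70. ACADM read 105, 105 and 122 TPM at day 0 and 124, 228 and 208 TPM at day 15. ACADL and ACADS each lost the call under 1 of 22 alternatives, whereas ACADM and DECR1 (0.77) lost it under 8 each. The list's rises numbered 1 without replicate 6 of day 0, and 2 without replicate 4 of day 0, replicate 2 of day 15, replicate 6 of day 15 or replicate 2 of day 7. Its falls numbered 4 without replicate 4 or 6 of day 0 or replicate 6 of day 15.

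Genes of fat storage were among the falls. Of 20 genes of lipid droplets and triglyceride turnover 6 fell and 2 rose (6 fell and 3 rose after scaling). PLIN5, which coats droplets next to mitochondria, read 42.6, 22.5 and 43.9 TPM at day 0 and 5.57, 7.68 and 6.59 TPM at day 15 (log2 fold change -2.24). Its relative PLIN2 had a log2 fold change of -1.49, and ANGPTL4, a secreted inhibitor of lipoprotein lipase, of -1.72. Leaving out replicate 6 of day 0 left 3 falls in this list, and leaving out replicate 5 of day 0 gave 10. The lipase gene PNPLA2 rose by 0.76 on the log2 scale, but neither rise of the list was called without replicate 4 of day 0, replicate 6 of day 0, replicate 2 of day 15 or replicate 6 of day 15. The summed level of 11 adipocyte markers was 516 to 655 TPM at day 0 and 325 to 401 TPM at day 15, without overlap. Of the 7 tested none passed in limma, and 5 were lower and 0 higher at an unadjusted p under 0.05. The adipocyte-defining genes ADIPOQ and PLIN1 were below the level filter and high in 1 library. ADIPOQ read 1.65, 0.151 and 13.5 TPM at day 0 and at most 0.113 TPM at day 15, and PLIN1 read 0.977, 0.267 and 8.15 TPM at day 0 and at most 0.0779 TPM at day 15. PLIN5, PLIN2 and ANGPTL4 were the falls called without that library, replicate 6 of day 0, and the part of fat cells in these falls was not tested.

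The switches that set fuel choice changed unevenly. UCP3, a mitochondrial carrier that rises with fatty acid supply, read 38.03, 13.4 and 55.9 TPM at day 0, then 5.14, 3.51 and 4.88 TPM at day 7 and 6.01, 9.598 and 3.71 TPM at day 15 (log2 fold change -2.17, limma adjusted p = 0.00584). PDK4 and PDK2 are kinases that shut pyruvate dehydrogenase. PDK4 read 84.2, 64.4 and 121 TPM at day 0 and 8.98, 53.6 and 30.7 TPM at day 15 (log2 fold change -1.77), whereas PDK2 read 16.8, 18.1 and 18.8 TPM at day 0 and 24.5, 27.2 and 31.2 TPM at day 15 (log2 fold change 0.59). Their directions were opposite, and each lost its call under 4 of 22 alternatives. ESRRA, a nuclear receptor for genes of oxidative metabolism, fell by 0.97 on the log2 scale.

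Glycolysis, pyruvate use and the respiratory chain showed few calls. Of 31 glycolysis, glucose and lactate genes 3 fell on TPM, but after scaling 4 rose and 1 fell. The fall called under both was that of ENO1, the ubiquitous enolase, which read 268, 231 and 338 TPM at day 0 and 107, 141 and 106 TPM at day 15 (log2 fold change -1.23). The falls numbered 1 without replicate 6 of either age or replicate 1 of day 15. Lactate dehydrogenase A, LDHA, read 138, 126 and 142 TPM at day 0, then 83.8, 254 and 55.7 TPM at day 7 and 277, 229 and 251 TPM at day 15. The log2 fold change of 0.89 did not pass (limma adjusted p = 0.1202), with day 7 spread over a wide range.

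In the TCA cycle list 6 of 28 genes fell on TPM, whereas 4 rose and 2 fell after scaling. Of 42 nuclear genes of the respiratory chain 7 fell on TPM (3 fell and 1 rose after scaling). In both lists the share of falls on TPM was near the 18.4% of all rows. COX6A1, the form of this cytochrome oxidase subunit found outside muscle, read 56.97, 41.1 and 64.03 TPM at day 0 and 12.7, 18.7 and 13.8 TPM at day 15 (log2 fold change -1.77). Cytochrome c, CYCS, fell by 1.06 on the log2 scale. These counts fell further with single omissions: the TCA falls to 0 without replicate 6 of either age and to 3 without replicate 4 of day 0 or 1 of day 15, and the respiratory chain falls to 3 without replicate 6 of either age and to 4 without replicate 4 of day 0. None of the 13 mitochondrially encoded genes passed in limma, adjusted or at an unadjusted p under 0.05, nor after scaling.

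Ketone body use stood out by 1 gene. BDH1, which turns hydroxybutyrate into acetoacetate, read 3.13, 4.86 and 2.75 TPM at day 0, then 9.85, 19.6 and 11.8 TPM at day 7 and 13.4, 14.3 and 17.5 TPM at day 15. Its log2 fold change was 1.83 ± 0.25 (SE), with a limma adjusted p of 0.00139, and the lowest day 15 library was above the highest day 0 library. OXCT1, the next enzyme of ketone use, rose by 0.75 on the log2 scale but lost the call under 13 of 22 alternatives. IVD, an enzyme of leucine breakdown, rose by 0.99. Ketone and branched-chain amino acid genes together held 3 rises and 4 falls of 25 on TPM and 11 rises and 3 falls after scaling. Their share of falls on TPM was near the 18.4% of all rows. The falls numbered 0 without replicate 6 of day 0 and 2 without replicate 1 or 6 of day 15, and the rises 6 without replicate 1 of day 15.

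Cholesterol synthesis genes were among those that fell: 14 of 28 genes were lower, on TPM as after scaling. The median log2 fold change was -0.76, and without replicate 6 of day 0 the count was 5. SQLE, the squalene epoxidase that commits the pathway to sterols, read 11.1, 10.7 and 13.1 TPM at day 0 and 2.998, 3.97 and 3.400 TPM at day 15 (log2 fold change -1.50 ± 0.18 (SE), limma adjusted p = 6.96e-04). LSS, IDI1 and NSDHL, all enzymes of the same route, had log2 fold changes of -1.44, -1.27 and -1.15. The desaturase SCD, which shares control with this pathway, fell by 1.80 on the log2 scale.

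Creatine kinases buffer ATP between mitochondria and myofibrils, and here the muscle form rose. CKM, the muscle form, read 187, 170.0 and 174 TPM at day 0, then 406, 311 and 252 TPM at day 7 and 537, 369 and 558 TPM at day 15. The fitted log2 change came to 1.44 ± 0.21 (SE), with a limma adjusted p of 0.00186. CKB, the brain form, read 136, 180.2 and 185 TPM at day 0 and 111, 26.4 and 39.8 TPM at day 15 (log2 fold change -1.74), and lost its call under 7 of 22 alternatives, median-of-ratios scaling among them. The CKM libraries did not overlap between ages, and all day 0 libraries of CKB were above those of day 15. SLC25A5, an ADP/ATP carrier of dividing cells, fell by 1.69 on the log2 scale.

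**Figure D4:**
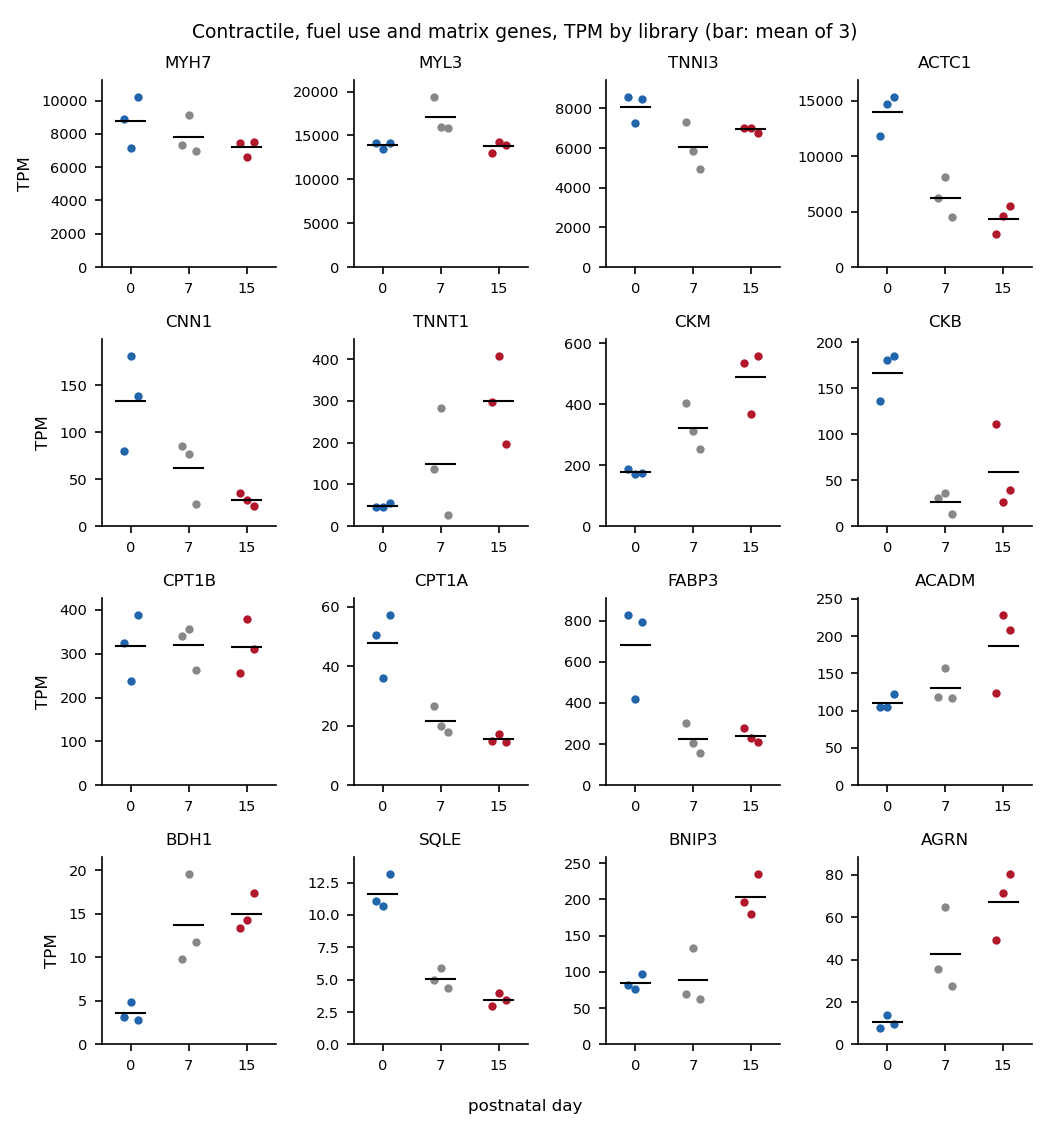
TPM (vertical axis, linear from 0) against postnatal day (horizontal axis) for 16 contractile, fuel and matrix genes, with 1 point per library and a bar at the mean of the 3 libraries. The panels for MYH7, MYL3, TNNI3 and CPT1B show the genes that did not pass, and those for ACTC1, CNN1, CPT1A and FABP3 have all 3 day 0 points (blue) above the day 15 points (red).

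The ventricular contractile genes MYH7, TNNI3 and MYL3 showed no called difference, whereas cardiac actin and several smooth muscle genes fell. MYH7 read 8921, 7160 and 10218 TPM at day 0 and 7450, 6605 and 7539 TPM at day 15 (log2 fold change -0.27, limma adjusted p = 0.289). TNNI3 had a log2 fold change of -0.22 and the ventricular myosin light chain MYL3 of -0.02, and neither passed. Cardiac alpha actin, ACTC1, did fall. It read 11841, 14745 and 15356 TPM at day 0, then 6255, 8088 and 4494 TPM at day 7 and 2952, 4609 and 5540 TPM at day 15. On the log2 scale it changed by -1.72 ± 0.26 (SE), with a limma adjusted p of 0.002099, and the lowest day 0 library held more than the highest library of either later age.

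Of 28 genes of the mature sarcomere 4 rose and 2 fell (8 and 1 after scaling). MYOM2, a cross-linker of thick filaments at the M-band, rose by 1.35 on the log2 scale and its relative MYOM3 by 1.02. XIRP2, an actin-binding protein of the intercalated disc, rose by 1.43. The list's rises numbered 2 without replicate 4 of day 0, replicate 6 of day 0 or replicate 6 of day 15.

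In the list of fetal, skeletal and smooth muscle forms 8 of 20 genes fell and 1 rose (6 fell and 3 rose after scaling). Those that passed under every alternative included smooth muscle genes: calponin CNN1 read 79.96, 181 and 139 TPM at day 0 and 34.99, 27.7 and 21.7 TPM at day 15 (log2 fold change -2.15), and the smooth muscle myosin MYH11, transgelin TAGLN and smooth muscle actin ACTA2 had log2 fold changes of -1.42, -1.18 and -1.01. The count was 5 without replicate 6 of day 0. Summed over all 14 pericyte and smooth muscle markers, the level was 2160 to 4734 TPM at day 0 and 1799 to 2303 TPM at day 15. Most of that sum was desmin, DES, which heart muscle cells also make, and without it the sums were 576 to 859 TPM and 396 to 425 TPM. Of these markers 5 fell (4 after scaling), and the pericyte channel subunit ABCC9 rose by 0.69 on the log2 scale. ACTA2, TAGLN and CNN1 are also made by immature heart muscle cells, and the part of each cell type in these falls was not tested.

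The single rise of that list was slow skeletal troponin T. TNNT1 read 45.8, 46.6 and 55.3 TPM at day 0, then 136, 284 and 27.7 TPM at day 7 and 296, 407 and 198 TPM at day 15 (log2 fold change 2.53 ± 0.60 (SE), limma adjusted p = 0.0124). Its lowest day 15 library was above its highest day 0 library. Slow skeletal troponin I, TNNI1, which is replaced by TNNI3 in the heart after birth, read 952, 1001 and 1057 TPM at day 0 and 508, 951 and 666 TPM at day 15. Its log2 fold change of -0.55 did not pass (limma adjusted p = 0.0789). Replicate 2 of day 15 was at the day 0 level for TNNI1.

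The natriuretic peptide NPPA, a marker of fetal ventricle, of stretched muscle and of atria, read 349, 2087 and 495 TPM at day 0, then 249.9, 1446 and 37.2 TPM at day 7 and 6.79, 200.4 and 59.8 TPM at day 15. Its log2 fold change of -3.96 ± 1.26 (SE) passed narrowly (limma adjusted p = 0.0393) and lost the call under 12 of 22 alternatives. Replicate 5 of day 0 and replicate 5 of day 7 were the high libraries. Its relative NPPB read 36.3, 224 and 83.3 TPM at day 0 and 7.34, 74.2 and 1.06 TPM at day 15, which did not pass (limma adjusted p = 0.145). The summed level of 13 atrial and conduction markers, in which NPPA is included, was 590.4 to 2989 TPM at day 0 and 197 to 696 TPM at day 15. The part of atrial tissue in this result was not tested.

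Genes of calcium release and of the junctions between cells rose in small number. Triadin, TRDN, which anchors calsequestrin at the release channel, read 12.2, 17.2 and 11.8 TPM at day 0 and 28.8, 41.5 and 38.5 TPM at day 15 (log2 fold change 1.34). S100A1, a calcium-binding activator of that channel, read 4.64, 5.47 and 2.81 TPM at day 0 and 14.4, 11.8 and 8.07 TPM at day 15 (log2 fold change 1.23). Both were called under every alternative. The whole calcium handling list held 3 rises and 4 falls of 25 on TPM and 7 rises and 2 falls after scaling. Its share of falls on TPM was near the 18.4% of all rows. The falls numbered 1 without replicate 6 of day 0 and 2 without replicate 1 or 6 of day 15.

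In the list of intercalated disc and costamere genes 3 of 32 rose, 8 after scaling. They included delta-sarcoglycan, SGCD (1.49 on the log2 scale), and the myofibril anchor NRAP (0.78), and the count was 1 without replicate 6 of day 0. Among ion channels and pumps, 4 of 21 fell and 1 rose (3 fell and 2 rose after scaling), a share of falls near the 18.4% of all rows. The falls included the anion exchanger SLC4A3 (-1.04) and the pump subunit ATP1B1 (-0.99). SLC4A3 alone of the 4 falls was called under every alternative, and 1 of the 4 remained called without replicate 6 of day 0.

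Matrix genes largely showed no called change, with 1 large exception. Agrin, AGRN, a heparan sulfate proteoglycan of the basement membrane that has been linked to cardiomyocyte proliferation in newborn mice, read 7.82, 13.7 and 9.77 TPM at day 0, then 35.4, 64.9 and 27.7 TPM at day 7 and 49.5, 71.6 and 80.3 TPM at day 15. Its log2 fold change was 2.58 ± 0.30 (SE), with a limma adjusted p of 6.93e-04, and all day 15 libraries were above all day 0 libraries. In the list of collagens, laminins and structural matrix 4 of 49 rose and 2 fell (8 and 0 after scaling), and the other 3 rises were nidogen-2, NID2 (1.01), fibrillin-1, FBN1 (0.89), and COL4A5 (0.82). Without replicate 6 of day 15 the list held 2 rises and without replicate 5 of day 0 it held 7, and neither fall was called without replicate 6 of day 0, replicate 2 of day 15 or replicate 6 of day 15.

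Among fibroblast markers, 2 of 17 rose and 1 fell. PI16, found on perivascular fibroblasts, read 6.07, 11.2 and 5.04 TPM at day 0 and 43.5, 64.4 and 39.7 TPM at day 15 (log2 fold change 2.61), and the surface protein THY1 read 5.51, 13.6 and 6.41 TPM at day 0 and 36.6, 39.9 and 32.4 TPM at day 15 (log2 fold change 2.06). The summed level of the 17 markers was 1583 to 2345 TPM at day 0 and 1846 to 2100 TPM at day 15. On TPM the day 15 range lay within that of day 0 while these 2 genes rose. The highest day 15 sum was that of replicate 1, which median-of-ratios scaling divides by 0.758. Whether the day 15 range lies within that of day 0 thus depends on scaling.

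Growth signals changed in both directions. Among growth factors and their receptors 5 of 39 rose and 8 fell (10 and 5 after scaling), a share of falls near the 18.4% of all rows. The fibroblast growth factor receptors FGFR2 and FGFR4 fell by 1.49 and 1.50 on the log2 scale. FGFR4 read 2.95, 3.38 and 4.74 TPM at day 0 and 0.362, 1.31 and 0.388 TPM at day 15. IGFBP3, a carrier of insulin-like growth factors in blood, fell by 1.30, whereas IGFBP7 rose by 1.11. Of these genes FGFR2, FGFR4 and IGFBP3 passed under every alternative. FGFR2 reached 1 TPM in day 0 libraries only and so passed the level filter only through that age. Both counts fell to 2 and 4 without replicate 4 of day 0, 2 and 3 without replicate 6 of day 0, and 2 and 4 without replicate 6 of day 15.

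Several transcription factors of the heart muscle lineage fell. GATA4, which keeps up cardiac gene expression and growth, read 64.3, 63.4 and 80.5 TPM at day 0 and 31.2, 42.9 and 35.4 TPM at day 15 (log2 fold change -0.91 ± 0.18 (SE), limma adjusted p = 0.00608). GATA6 and the actin-regulated factor SRF had log2 fold changes of -0.98 and -1.25, and NFATC4, a calcineurin-regulated factor, rose by 0.99. In the whole list 9 of 25 fell and 1 rose (7 fell and 1 rose after scaling). Omitting replicate 6 of day 0, replicate 1 of day 15 or replicate 6 of day 15 left falls numbering 2, 4 and 4. GATA4 and NFATC4 were called under every alternative.

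Splicing regulators fell in 11 of 22 cases (11 falls and 1 rise after scaling). These proteins choose exons during maturation of heart muscle transcripts. SRSF3, the smallest member of the serine/arginine-rich family, read 79.4, 68.2 and 92.1 TPM at day 0 and 27.5, 41.5 and 31.4 TPM at day 15 (log2 fold change -1.24). SRSF2 and SRSF1 had log2 fold changes of -1.01 and -0.98. Omission of replicate 6 of day 0 left 3 falls and omission of replicate 6 of day 15 left 7, and those of SRSF3 and SRSF2 were called in each case.

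Few cell division genes had a called net change, and the count rested on 1 day 0 library. None of 40 mitosis genes passed on TPM in limma (4 were higher at an unadjusted p under 0.05) and 3 rose after scaling. Of 42 genes of DNA replication and the start of S phase 2 rose and 1 fell. The mitotic kinase CDK1 read 3.11, 22.8 and 5.69 TPM at day 0, then 24.4, 24.3 and 18.3 TPM at day 7 and 10.3, 17.6 and 21.3 TPM at day 15 (log2 fold change 0.94, limma adjusted p = 0.177). Its cyclin partner CCNB1 read 2.59, 11.6 and 3.43 TPM at day 0, then 11.2, 10.1 and 6.95 TPM at day 7 and 4.200, 5.799 and 7.17 TPM at day 15 (log2 fold change 0.18, limma adjusted p = 0.765). In both genes replicate 5 of day 0 lay far above the other 2 day 0 libraries, and the ages overlapped. Without that library 23 mitosis genes and 11 genes of DNA replication and S phase rose, and CDK1 was called at 1.67 on the log2 scale (limma adjusted p = 0.00389). CDK1 was also called with library weights (1.51, limma adjusted p = 0.00699), and its adjusted p lay between 0.00389 and 0.549 over the 22 alternatives.

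TYMS, which makes thymidylate for DNA synthesis, was the gene of these lists with the clearest rise. It read 1.03, 6.21 and 1.73 TPM at day 0, then 13.9, 28.8 and 24.7 TPM at day 7 and 9.13, 12.7 and 14.1 TPM at day 15. The change on the log2 scale was 1.90 ± 0.40 (SE), with a limma adjusted p of 0.00802 and a call under every alternative run. All day 15 libraries were above the day 0 libraries, including replicate 5, and below the highest day 7 library. Cyclin CCNE2 rose by 0.67 on the log2 scale, with its call lost under 11 of 21 alternatives, and the phosphatase CDC25A fell by 0.89.

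Among cell cycle inhibitors and p53 targets 4 of 25 rose and 5 fell (6 and 4 after scaling), a share of falls near the 18.4% of all rows. The stress-induced growth arrest genes GADD45A and GADD45G fell by 1.66 and 1.94 on the log2 scale, and GADD45A read 24.3, 28.96 and 30.9 TPM at day 0 and 7.56, 8.73 and 8.27 TPM at day 15. SESN2, another of the falls and also on the ATF4 list, passed the level filter only through day 0. The atypical cyclin CCNG2 rose by 1.34. The p21 inhibitor gene CDKN1A read 30.7, 36.1 and 45.7 TPM at day 0 and 42.1, 54.2 and 27.98 TPM at day 15, which did not pass (limma adjusted p = 0.828). The rises in this list numbered 0 without replicate 6 of day 0 and 1 without replicate 4 of day 0, and the falls numbered 3 without replicate 6 of either age.

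Genes of mitophagy were among the rises. BNIP3, an outer mitochondrial membrane receptor that marks mitochondria for removal and is induced by low oxygen, read 82.3, 76.1 and 96.8 TPM at day 0, then 69.99, 133 and 62.9 TPM at day 7 and 196, 179.8 and 234 TPM at day 15. The log2 fold change was 1.25 ± 0.25 (SE), with a limma adjusted p of 0.00691. ULK1, the kinase that starts autophagy, rose by 1.20 on the log2 scale. Of 27 autophagy and mitophagy genes 5 rose and 1 fell on TPM, and 12 rose after scaling. The rises numbered 2 without replicate 4 of day 0, replicate 6 of day 0 or replicate 6 of day 15 and 3 without replicate 2 of day 15. BNIP3 and ULK1 were called in all of these.

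Single genes of the clock and of hormone action fell. NR1D1, the REV-ERB alpha repressor of the circadian clock, read 10.3, 8.08 and 12.6 TPM at day 0 and 3.26, 5.43 and 3.28 TPM at day 15 (log2 fold change -1.19, limma adjusted p = 0.00458), and the clock activator ARNTL fell by 0.98 on the log2 scale. The time of day at which tissue was taken is not given in the labels. Of 22 clock genes 5 fell (3 without replicate 6 of day 0), a share near the 18.4% of all rows. The 1 rise (2 after scaling) was that of BHLHE41, by 0.82. BHLHE41 reached 1 TPM in day 15 libraries only and so passed the level filter only through that age. In the glucocorticoid response 7 of 18 fell (4 without replicate 6 of day 0) on TPM, and 7 fell and 1 rose after scaling. The falls included HSD11B2 (-1.29), which inactivates cortisol, and KLF9 (-1.15). THRSP, a thyroid-responsive gene of fat synthesis, read 2.24, 2.69 and 12.8 TPM at day 0 and 0.468, 1.01 and 0.496 TPM at day 15 (log2 fold change -1.74). Replicate 6 of day 0, its highest library, was also the highest for the adipocyte genes ADIPOQ and PLIN1. The part of fat cells in the fall of THRSP was not tested.

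Heme oxygenase, HMOX1, which breaks down heme under oxidative stress, read 11.98, 14.5 and 16.4 TPM at day 0 and 1.67, 3.45 and 2.44 TPM at day 15 (log2 fold change -2.14 ± 0.26 (SE), limma adjusted p = 8.43e-04). It was among 4 falls and 2 rises of 30 antioxidant genes (4 fell and 6 rose after scaling), with 2 falls without replicate 6 of day 0 and 8 without replicate 2 of day 15. Genes of blood vessel growth gave 4 falls of 33 on TPM and 1 fall and 2 rises after scaling. For antioxidant and vessel growth genes alike the share of falls on TPM was below the 18.4% of all rows. The falls in vessel growth genes numbered 1 without replicate 4 or 6 of day 0 or replicate 6 of day 15. They numbered 2 without replicate 2 of day 15 and 7 without replicate 5 of day 0. VEGFA, the main vessel growth signal, had a log2 fold change of -0.98 and lost the call under 9 of 22 alternatives.

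**Figure D5:**
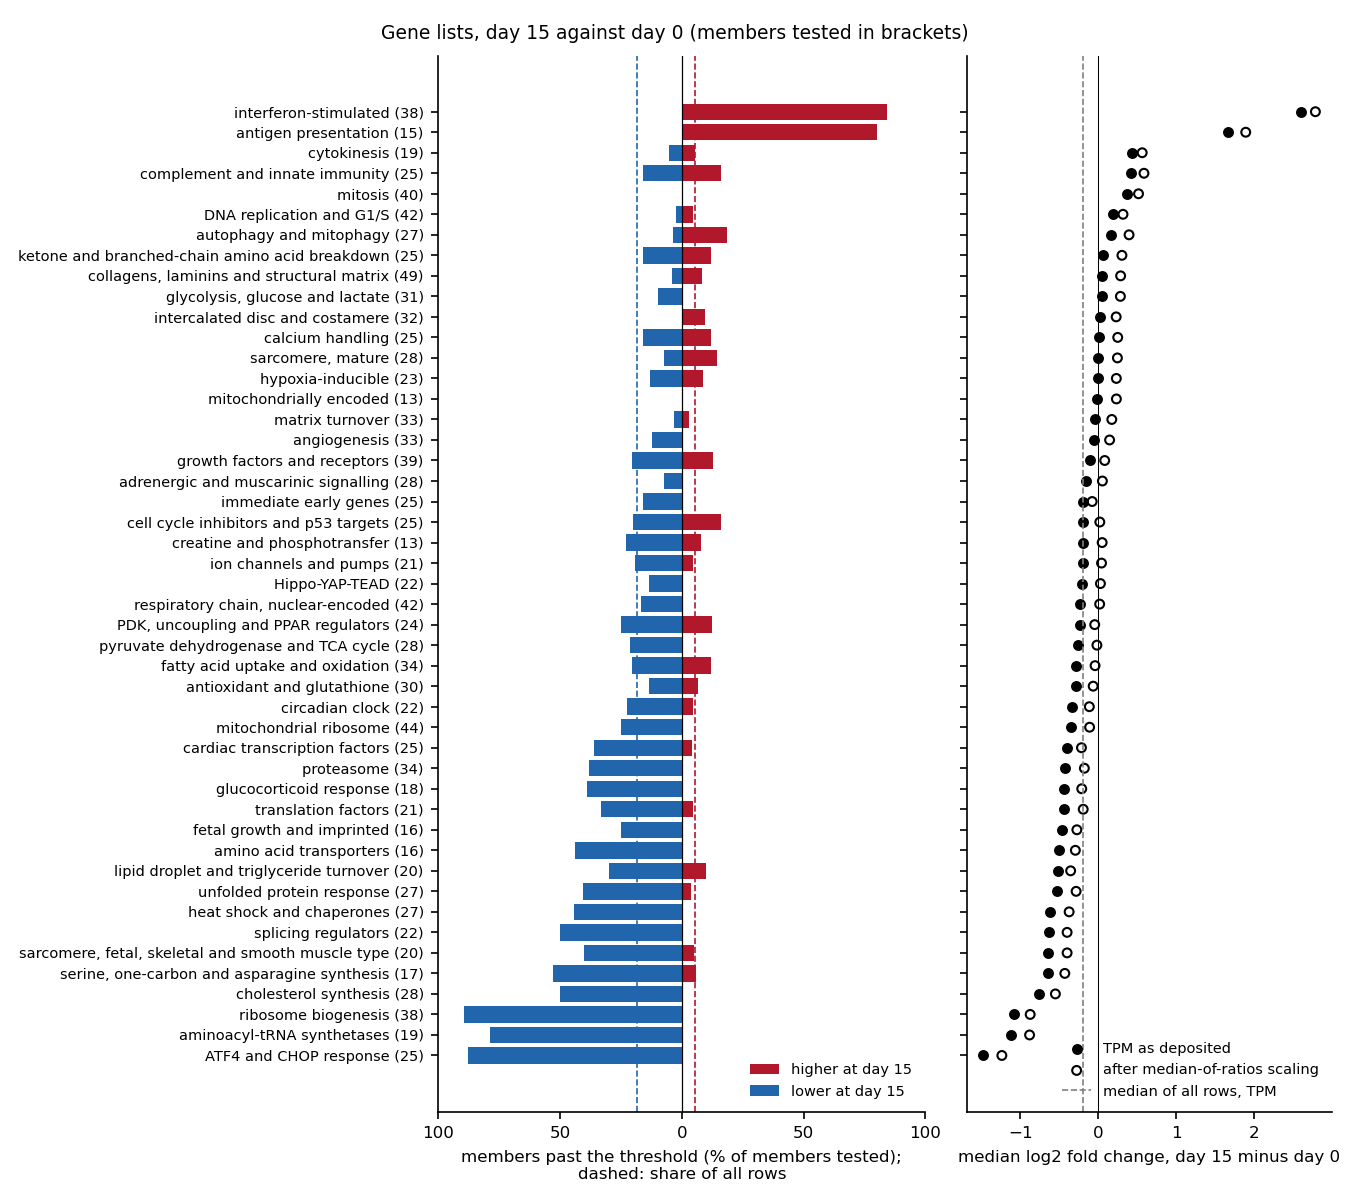
Each row is a gene list with at least 10 members tested (number in brackets), and lists of cell type markers are left out. Bars give the percent of members called higher (red, right) or lower (blue, left) at day 15, with dashed lines at 5.53% and 18.4% for all rows. Points give the list's median log2 fold change on TPM (filled) and after median-of-ratios scaling (open). The interferon and antigen presentation lists are at the top, with medians of 2.60 and 1.67, and the ATF4, synthetase and ribosome biogenesis lists at the bottom, with medians of -1.48, -1.13 and -1.09.

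Single genes outside the lists were named by the size of their change. RBM3, an RNA-binding protein that is induced by mild cold, read 166, 187 and 242 TPM at day 0, then 68.7, 42.5 and 54.1 TPM at day 7 and 32.4, 26.3 and 34.1 TPM at day 15. Its log2 fold change was -2.63 ± 0.21 (SE), with a limma adjusted p of 6.95e-05. IFRD1, a transcriptional co-regulator of muscle regeneration, fell by 2.99 on the log2 scale. Both genes passed under every alternative, and their day 0 libraries lay above all others.

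CMTM5 and IL25 are neighbouring genes in the pig reference, and how reads shared between overlapping transcripts were assigned is not given, so their values may not be separate. CMTM5 read 137, 113 and 163 TPM at day 0, then 3.33, 40.1 and 6.27 TPM at day 7 and 19.4, 2.06 and 11.2 TPM at day 15 (log2 fold change -3.91). IL25 read 98.6, 115 and 119 TPM at day 0, then 2.34, 34.04 and 6.33 TPM at day 7 and 14.9, 1.503 and 9.95 TPM at day 15 (log2 fold change -3.88). In both genes every day 0 library was above every older library, and replicate 2 was the lowest of the day 15 libraries. Among the other rows named by size, TCTEX1D1 and MROH7 fell by 3.26 and 2.77 on the log2 scale.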

How the data were processed

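The values are TPM as the authors deposited them, in a table of 22629 rows whose 9 columns, 1 per library, were each used. Per the labels' protocols, RNA was isolated from frozen left ventricle with a NucleoSpin kit and libraries were made with the TruSeq stranded mRNA protocol. Per the submitters' processing notes the tools were kallisto 0.43.1, HISAT2 2.0.5 and Trimmomatic 0.33, with no role stated. Annotation, strand use and genome build: not given in the sources used here. Rows were named by symbol (15095) or Ensembl identifier (7534, of which 889 gained a symbol from a reference name table). TPM keeps no depth, and a very abundant transcript shifts every other share.

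Rows with at least 1 TPM in at least 3 libraries were tested on log2(TPM + 1), which understates the change of low genes. A row that reached 1 TPM at day 0 alone or day 15 alone passed only through that age. For such a row the filter fixed the lack of overlap in advance. All 9 libraries entered 1 linear model with a mean for each age in limma 3.58.1 (R 4.3.3, mean-variance trend, 6 residual degrees of freedom), and day 15 minus day 0 was adjusted over all 12268 rows by the Benjamini-Hochberg method at 0.05, two-sided. Exact permutation was not used for single genes, because with 3 libraries on each side its smallest two-sided p is 0.1. Alternatives were pseudocounts of 0.1 and 5, other filters, other scalings, other variance settings, fewer libraries and a replicate block.

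Gene lists and the rule for named genes were chosen with earlier results of these data known. The rule takes up to 4 members of each list with the smallest adjusted p, its most abundant member, the 12 largest rises and falls, the 8 largest differences in TPM each way and a set of heart genes. Further list members named here were chosen after their values were seen. A list is described by its counts and median, with no test. Some members of the lists are not reported here by name. Pig promoter and protein sequences and coordinates were not used here.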

Additional observations from a re-analysis of the deposited data

How the results depend on the processing

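Over the 22 alternative settings the size of the counts varied widely. The rows called ran from 816 to 5272 beside 2933 in the main fit, and the rises from 198 to 1912 beside 678. Falls outnumbered rises among the rows called in 20 of them, and the exceptions were median-of-ratios scaling (1912 rises, 1889 falls), the rescaling without mitochondrial rows and the 20 most abundant rows (1801 rises, 1757 falls). Rises also numbered 1631 after quantile normalization, 1389 without the most abundant row and 438 with a mean of at least 5 TPM. Library weights gave 5272 rows called (1593 rises, 3679 falls), and a pseudocount of 5 TPM gave 340 rows called with at least 2-fold. The rows called ranged from 816 to 3266 over the 9 omissions of a library, with 198 to 969 rises, 618 to 2823 falls and 460 to 1216 called with at least 2-fold. The cause of these shifts was not tested. Each omission also left a smaller number of libraries.

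The ages compared share only replicate number 6, and same-numbered libraries did not deviate together (correlations between -0.213 and 0.170), so the numbers were not taken to pair libraries. With the replicate block 919 rows were called (396 rises, 523 falls), in a fit that leaves fewer degrees of freedom.

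Genes that had not passed changed sign as follows, all without a call. CCNB1 lay between -0.18 and 0.73 on the log2 scale over the omissions of a library. CDKN1A was at -0.28 with library weights, -0.23 with the replicate block and between -0.11 and 0.36 over the omissions. COX6A2 was at -0.0626 with the replicate block. CPT1B was at -0.0388 with library weights and between -0.19 and 0.16 over the omissions of a library. MYL3 was at 0.23, 0.0795 and 0.14 after median-of-ratios scaling, quantile normalization and removal of the most abundant row, and between -0.0480 and 0.0195 over the omissions. TNNI3 was at 0.0292 and 0.0758 after the first and second of these. The promoter motif counts planned for the gene lists were not run, since no promoter sequences were used here.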

Other observations

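Cytoplasmic ribosomal protein genes were not on any list and were gathered by the form of their symbols after the data were seen. Of 60 such rows tested 47 fell and 1 rose on TPM, with a median log2 fold change of -0.72, and 34 fell and 1 rose after median-of-ratios scaling (median -0.48). Near-identical copies make single values of this family uncertain. RPL3, a core protein of the large subunit, read 136, 125 and 158 TPM at day 0 and 44.9, 53.2 and 39.1 TPM at day 15 (log2 fold change -1.59). The single rise was RPL3L, its muscle-specific paralogue, which read 33.00, 50.8 and 32.04 TPM at day 0 and 69.1, 59.4 and 80.98 TPM at day 15 (log2 fold change 0.86). Limma's adjusted p was 0.00115 for RPL3 and 0.0135 for RPL3L, and neither gene overlapped between the ages.

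Other genes with a general and a muscle form were set side by side, also after their values were seen. Not all pairs parted. Neither COX7A2 nor its muscle form COX7A1 passed (log2 fold changes 0.003 and 0.023). Nor did PGAM1 or its muscle form PGAM2 (-0.53 and -0.49). COX6A1 fell by 1.77 on the log2 scale while its muscle form COX6A2 read 98.2, 98.4 and 104 TPM at day 0 and 117, 117 and 102 TPM at day 15, which did not pass (limma adjusted p = 0.497). ENO1 fell by 1.23 while the muscle enolase ENO3 read 1216, 1391 and 1294 TPM at day 0 and 1435, 1429 and 1471 TPM at day 15, which did not pass (limma adjusted p = 0.469). COX8H, the heart and muscle form of cytochrome oxidase subunit VIII, read 598, 701 and 599 TPM at day 0 and 967, 1157 and 1021 TPM at day 15 (log2 fold change 0.73), whereas the general form COX8A had a log2 fold change of -0.37 that did not pass (limma adjusted p = 0.225). The ADP/ATP carriers did not part in this way on TPM: SLC25A4, the muscle form, fell by 0.72 and SLC25A5 by 1.69. SLC25A4 lost its call under 10 of 22 alternatives, among them median-of-ratios scaling (log2 fold change -0.47). SLC25A5 lost its call under none. Whether both carriers are called as falls thus depends on scaling.

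CIRBP, another RNA-binding protein induced by cold, read 81.4, 94.7 and 94.5 TPM at day 0 and 63.8, 70.98 and 78.7 TPM at day 15, which did not pass (log2 fold change -0.34, limma adjusted p = 0.148), unlike RBM3.

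Of 1175 tested rows with no symbol 69 rose and 217 fell. ENSSSCG00000032389 read 7.14, 11.04 and 6.28 TPM at day 0 and was listed at 0 in all 6 later libraries. It thus passed the level filter only through day 0. ENSSSCG00000036669 read 24.8, 21.3 and 34.3 TPM at day 0 and 2.33, 3.89 and 1.23 TPM at day 15 (log2 fold change -3.04). ENSSSCG00000017754 rose by 3.10 on the log2 scale and ENSSSCG00000014565 by 2.49, and in both rows replicate 2 was the highest day 15 library, as it was for MX1.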
